A study of Mus musculus with 8 samples.

Results

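The genes described here are 33 components of the lysosome and of its proton pump, chosen by gene symbol from the deposited table of 48440 mouse genes. They encode 2 membrane glycoproteins, 9 enzymes that degrade glycans, 5 proteins of sphingolipid breakdown, 2 hydrolases that act on proteins, and 2 cholesterol carriers. The other members are the genes of 8 proteins of the vacuolar ATPase (V-ATPase), the channel gene Mcoln1 with Cln3, and the genes of 3 MiT/TFE transcription factors. Their transcripts were measured by RNA sequencing in macrophages from the pancreatic islets of wild-type male C57BL/6J mice. Mice received a chow diet (8% fat, 21% protein and 71% carbohydrate, 10.88 kJ/g) or a high-fat diet (HFD; 45% fat, 20% protein and 35% carbohydrate, 19.67 kJ/g) from an age of 8 weeks and for a further 8 weeks, so that cells were taken at 16 weeks. Each diet had 4 libraries, chow 1 to 4 and HFD 5 to 8, and each library came from islet cells of 2 pooled mice that carried both CD11b and F4/80, the surface proteins used to collect macrophages. A library is therefore the unit of replication. The comparison of HFD with chow asks how diet changes the transcripts of these cells.

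Lysosomes are acidic compartments in which enzymes break down proteins, glycans and lipids taken up by the cell or delivered from its own cytoplasm. The V-ATPase keeps them acidic: its cytoplasmic V1 sector hydrolyses ATP and its membrane V0 sector carries protons inward. Macrophages are professional phagocytes and are known for a large lysosomal system, and in lipid-rich tissue their lysosomes process the lipid they take up. Tfeb, Tfe3 and Mitf are related transcription factors that bind the sequence CACGTG, which in the promoters of lysosomal genes is often part of a longer palindrome called the CLEAR element.

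The promoter sequences are shown first because this element is what the MiT/TFE factors are known to read in such genes. RefSeq promoters of the GRCm38.p6 build, each covering 250 bases before to 50 bases after an annotated start, were found for 29 of the 33 members, with 38 promoters in all. Asah1, Atp6v1b2, Atp6v1h and Npc1 had no entry. CACGTG, which reads the same on both strands, occurred in a promoter of 10 members (34.5% of the 29): Atp6v0b, Atp6v0d1, Atp6v1a, Cln3, Gaa, Gla, Glb1, Lamp1, Mcoln1 and Sgsh. It occurred in 2187 of all 27025 genes with a promoter (8.09%), and in 895 of the 7165 that were also tested for a diet difference (12.5%). Per promoter, the shares were 26.3% for members and 7.15% for all 32851 promoters. The share varied between the lists of other pathway genes described below. CACGTG occurred in 2 of 11 other hydrolase genes, 1 of 9 other V-ATPase subunit genes and 1 of 14 other lysosomal membrane protein genes with a promoter. It occurred in 4 of 5 genes of hydrolase sorting and 5 of 14 genes upstream of or related to the MiT/TFE factors. All 10 members with CACGTG also held the longer TCACGTG on one strand or the other, which 4.29% of all genes held. The palindrome TCACGTGA, which contains CACGTG, was present in 5 members (17.2%), Atp6v0d1, Atp6v1a, Cln3, Gla and Mcoln1, and in 1.12% of all genes. Of the 7165 genes that were also tested, 178 held it (2.48%). The full CLEAR palindrome, TCACGTGA with G before and C after it, was found in Cln3 and in 100 genes altogether (0.37%). The members' promoters held 17 copies of CACGTG in total, and 5 members had at least 2 copies.

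The Lamp1 promoter held 4 copies, the most of any member, in a stretch of 73 bases that includes the flanks. It is printed below with single copies from Atp6v1a, Gaa and Glb1 for comparison, 5′ to 3′ on the strand of the gene, with every CACGTG in capitals. The stretches lie at chr8:13159088-13159160 (plus strand, Lamp1), chr16:44139373-44139402 (minus strand, Atp6v1a), chr11:119267811-119267840 (plus strand, Gaa) and chr9:114401018-114401047 (plus strand, Glb1) of GRCm38.p6. None overlapped an exon of the GENCODE M21 annotation.
Lamp1: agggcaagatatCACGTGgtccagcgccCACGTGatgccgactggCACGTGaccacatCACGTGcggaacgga
Atp6v1a: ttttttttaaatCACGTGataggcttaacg
Gaa: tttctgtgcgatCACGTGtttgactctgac
Glb1: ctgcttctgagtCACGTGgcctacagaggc
In Lamp1 the copies lay between 61 and 10 bases before the start. The copy in Atp6v1a lay 131 to 126 bases, that in Gaa 140 to 135 bases and that in Glb1 48 to 43 bases before the start. These distances are from the RefSeq starts. In GENCODE M21 the Atp6v1a gene runs from 44085402 to 44139705, so there the printed stretch lies inside the gene, between exons. The GENCODE start of Gaa, 119267887, also differs from the RefSeq start but still lies after the printed stretch. These matches describe the letters of the reference genome and no binding was measured.

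Library totals were 4288665 to 6391247 expected counts, so that 3 counts, the upper limit that a count of 0 allows, correspond to 0.468 to 0.708 CPM, the depth-scaled count used throughout. These floors cover counting error only. CPM values are scaled between libraries by the TMM method, and means are given with the SD over 4 libraries. Macrophage transcripts were abundant in both diets: the sum of 10 macrophage markers was 3725 to 4593 CPM on chow and 3285 to 4047 CPM on HFD, with 2 of 10 higher on average in HFD. Adgre1, the gene of F4/80, was at 506 ± 78.4 CPM on chow and 419 ± 74.1 CPM on HFD, and Itgam, the gene of CD11b, at 312 ± 71.3 and 337 ± 98.3 CPM. Other cells also left transcripts. Summed stellate and fibroblast markers were 1.87 to 24.3 CPM on chow and 493, 290, 262 and 16.3 CPM in HFD 5 to 8, with 9 of 9 markers higher on average in HFD and Col1a1, Dcn, Lum and Pdgfra at 0 in every chow library. Endocrine markers summed to 444 to 1756 CPM on chow and 953 to 1832 CPM on HFD (9 of 10 higher on average in HFD), and acinar markers to 0.225 to 3195 and 36.6 to 1562 CPM (0 of 10 higher). Dendritic cell markers summed to 45.1 to 141 CPM on chow and 17.3 to 95.5 CPM on HFD (4 of 6 higher). Ccr7 was at 0 throughout. Clec9a, the most abundant of them, went the other way, at 71.6 ± 36.8 CPM on chow and 24.6 ± 8.91 CPM on HFD. For Clec9a every HFD library lay below every chow library, as for 1.71% of all genes tested. B cell markers reached at most 20.4 CPM, with Cd79a and Pax5 at 0 in every library, endothelial markers 23.6 CPM and ductal markers 4.96 CPM. Of the neutrophil markers S100a8, S100a9, Ly6g and Retnlg were at 0 throughout and Mmp8 brought the sum to 20.7 CPM in HFD 5. T cell markers stayed at or below 0.422 CPM, with Cd3e and Cd3g at 0.

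The lysosomal transcripts together took a similar share of the transcriptome in both diets. The 33 members together made up 5368, 5458, 5740 and 5183 CPM in chow 1 to 4 and 6509, 6013, 5399 and 5611 CPM in HFD 5 to 8. The diets overlapped in this sum, since HFD 7 and HFD 8 lay below chow 3. The means were 5437 ± 232 CPM on chow and 5883 ± 489 CPM on HFD, or 0.544% and 0.588% of the scaled total. Psap, Lamp2, Lamp1 and Asah1 supplied 51.3% of the members' sum in chow and 50.4% in HFD.

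Per kilobase of merged exon length, which allows genes to be compared, the levels spanned a wide range down to the detection floor. Psap, which encodes the precursor of the saposins that help enzymes reach sphingolipids, was highest at 426 CPM per kb over the 8 libraries. It was followed by Lamp1 (158), Asah1 (123), Lamp2 (90.7), Hexa (71.3), Ids (69.8) and Ppt1 (62.7 CPM per kb). Among the 8 V-ATPase members the accessory subunit gene Atp6ap1 was highest at 51.2 CPM per kb, above the membrane subunit genes Atp6v0b (27.9) and Atp6v0d1 (26.3) and the catalytic subunit gene Atp6v1a (20.1 CPM per kb). Psap and Asah1 each had every library above every library of the next gene in this order, Lamp1 and Lamp2, while all other neighbours had overlapping ranges. The transcription factor genes were lower, with Mitf at 11.5, Tfe3 at 6.88 and Tfeb at 2.27 CPM per kb. At the low end Sgsh reached 1.98, Gla 1.66 and Smpd1 0.20 CPM per kb.

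**Figure D1:**
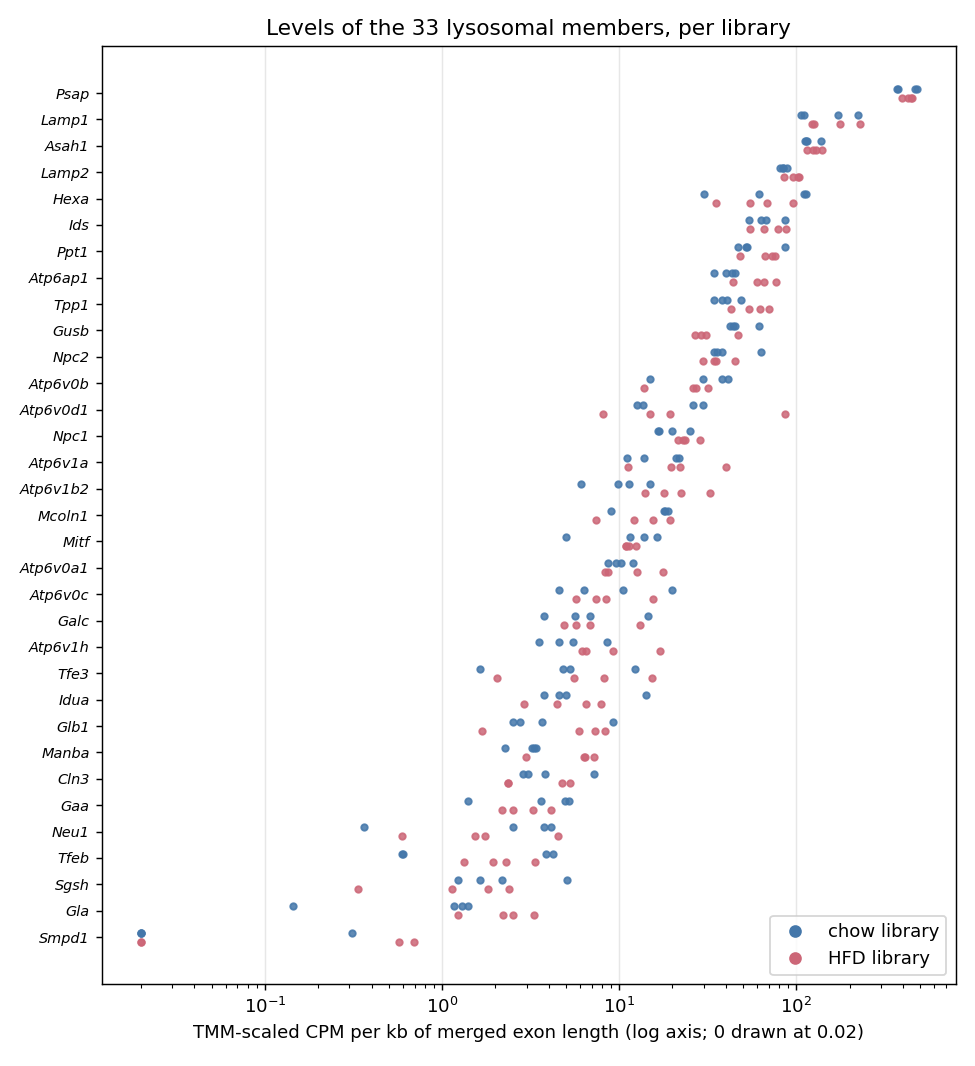
Level of each of the 33 members in each library, as TMM-scaled CPM per kb of merged exon length on a log axis, ordered by the mean over all libraries; blue points are chow libraries and red points HFD libraries, and values of 0 are drawn at 0.02. Psap stands at the top with a mean of 426 CPM per kb, and blue and red points overlap for every member.

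No member passed the threshold for a diet difference. Of the 33 members 32 had enough counts to be tested, and 0 were called by edgeR's quasi-likelihood test at a Benjamini-Hochberg adjusted p of 0.05, where 0% of all 10129 genes tested were called. At an unadjusted p under 0.05, which 3 of 32 members (9.38%) and 5.35% of all genes reached, 3 members were higher in HFD, Atp6v1b2, Atp6ap1 and Tpp1, where 2.61% of all genes were higher, and 0 members were lower, where 2.74% of all genes were lower. DESeq2 called 0 members and 28 genes in all (0.276%), and limma-voom 0 members and 1 gene (0.00987%). No member had all HFD libraries above or all below the chow libraries, against 1.68% and 1.71% of all genes. The estimated log2 fold change was above 0 for 18 members and below 0 for 14, with 48.6% of all genes above 0. The median was 0.09 for members and -0.02 for all genes tested. In bulk libraries, fewer cells of a type and less RNA per cell cannot be told apart. The labels do not say whether the pooled mice shared a cage or an islet preparation. The p-values weigh the diet difference against the spread between these libraries and treat them as independent, which could not be checked.

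The precision of these estimates was uneven. The standard error (SE) of the log2 fold change had a median of 0.39 over the tested members and 0.75 over all genes, and the members' coefficient of variation had a median of 37.3% in chow and 36.7% in HFD, where all genes had 59.2% and 52.6%. For 12 of 32 members the 95% interval of the fold change lay within a 2-fold change in either direction, as it did for 15.8% of all genes. Of these, 11 were among the 15 members with a mean of at least 100 CPM, whose SE ran from 0.14 to 0.40. Among the 17 tested members below 100 CPM, where the SE ran from 0.38 to 1.18, Mitf alone had such an interval. For most of the less abundant members a 2-fold difference was therefore not excluded by the interval at this depth and spread.

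**Figure D2:**
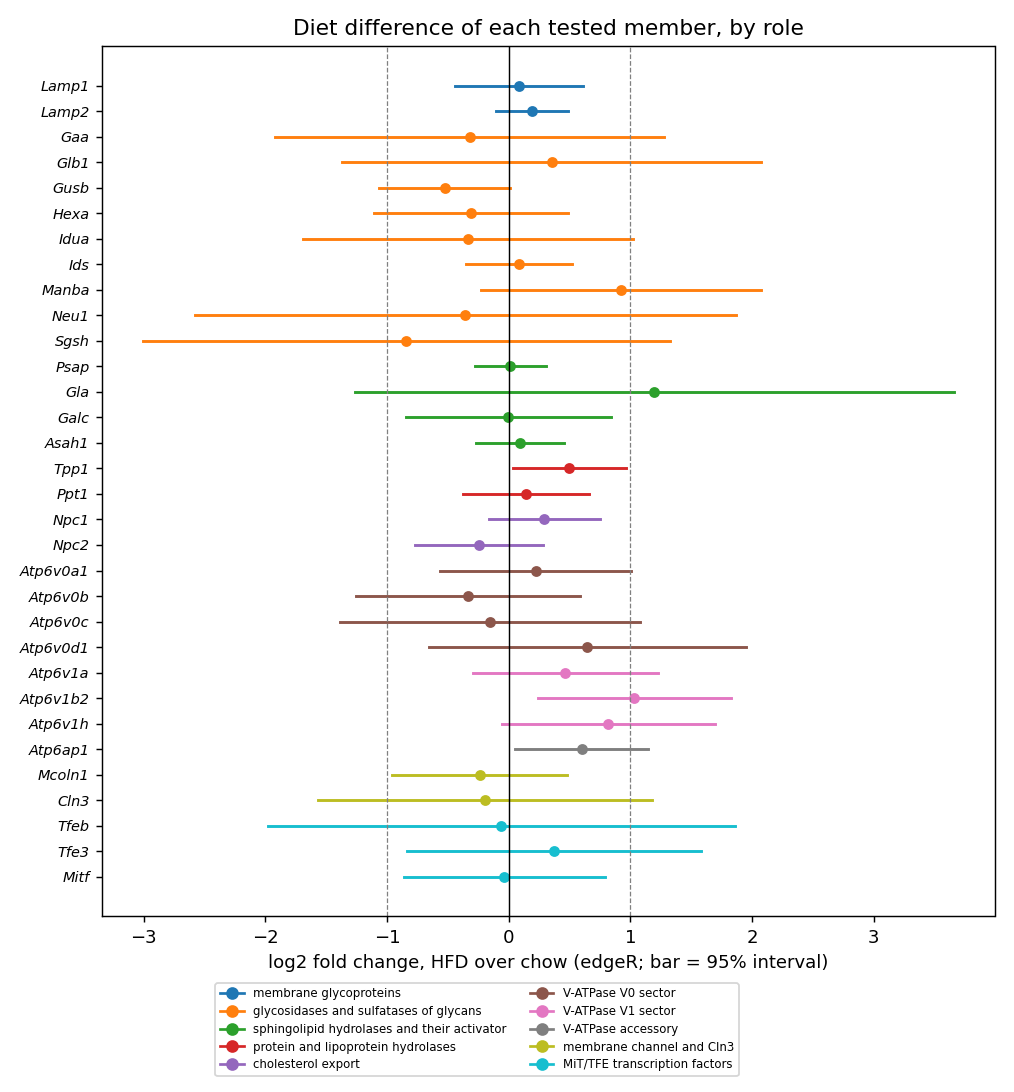
Log2 fold change of HFD over chow for each tested member, in order of role, as estimated by edgeR; points are estimates, bars 95% intervals, and the dashed lines mark a 2-fold change in either direction. Of the 32 members, 18 lie above 0, and the intervals of Atp6v1b2, Atp6ap1 and Tpp1 exclude 0 before adjustment over all genes.

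The membrane glycoprotein genes differed in how steady they were. Lamp2, whose protein lines the lysosomal membrane and takes part in its fusion with other compartments, was at 778, 851, 805 and 801 CPM on chow and 973, 921, 814 and 986 CPM on HFD. Only HFD 7 fell within the chow range, and all 4 HFD libraries were above the chow mean of 809 ± 30.3 CPM; the HFD mean was 924 ± 78.1 CPM. The log2 fold change was 0.19 (SE 0.14, 95% interval -0.10 to 0.49) and did not pass the threshold (edgeR adjusted p = 0.99). Lamp1, the other main glycoprotein of that membrane, was at 601, 284, 295 and 462 CPM on chow and 612, 470, 336 and 328 CPM on HFD. The diets covered almost the same range, and the log2 fold change was 0.09 (SE 0.25, -0.44 to 0.61). Lamp1 shares exon bases with Grtp1 on the other strand, and the strand setting of the counting is not given in the sources used here.

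Among the 9 glycan-degrading enzymes, 3 estimates lay above 0 and 6 below, with a median log2 fold change of -0.32. Gusb, which encodes beta-glucuronidase, had the estimate with the smallest p. It was at 204, 280, 192 and 199 CPM on chow and 140, 122, 132 and 213 CPM on HFD. HFD 5, 6 and 7 lay below every chow library while HFD 8 lay above 3 of them. The means were 219 ± 41.3 and 152 ± 41.7 CPM and the log2 fold change was -0.53 (SE 0.26, -1.06 to 0.01; edgeR unadjusted p = 0.054, adjusted p = 0.94). HFD 5, 6 and 7 also had the highest stellate and fibroblast marker sums. With that sum as a covariate, entered as log2(sum + 1), the log2 fold change of Gusb was 0.016. That sum ran largely with diet, so the adjusted value leans on HFD 8 and does not separate diet from those cells. Manba, the gene of lysosomal beta-mannosidase, was at 15.7, 22.3, 23.0 and 23.6 CPM on chow and 43.9, 50.5, 20.9 and 45.0 CPM on HFD. HFD 5, 6 and 8 lay above all chow libraries and HFD 7 lay among them, giving a log2 fold change of 0.92 (SE 0.55, -0.23 to 2.07; edgeR adjusted p = 0.99).

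Ids, the gene of the sulfatase that acts on heparan and dermatan sulfate, was the most abundant of these enzymes by CPM. It was at 323, 345, 276 and 439 CPM on chow and 403, 336, 278 and 449 CPM on HFD, giving a log2 fold change of 0.08 (SE 0.21, -0.35 to 0.52). The chow and HFD values of Ids interleaved over the whole range. Hexa, the alpha subunit gene of beta-hexosaminidase A, varied more than 3-fold within chow, at 60.0, 220, 227 and 123 CPM, and was at 191, 137, 109 and 70.7 CPM on HFD. Its log2 fold change was -0.31 (SE 0.38, -1.11 to 0.48). The other glycan enzymes were scarce. The acid alpha-glucosidase gene Gaa was at 18.1 ± 8.30 CPM on chow and 14.5 ± 4.18 CPM on HFD, and the beta-galactosidase gene Glb1 at 13.7 ± 9.56 and 17.5 ± 8.79 CPM. Idua, which encodes alpha-L-iduronidase, was at 28.8 ± 20.4 and 22.8 ± 9.24 CPM. The sialidase gene Neu1 was at 10.04 ± 6.34 and 7.84 ± 6.32 CPM, and the heparan sulfatase gene Sgsh at 11.2 ± 7.71 and 6.25 ± 3.90 CPM. In each of these 5 the diets overlapped, and the SE of the log2 fold change was 0.65 or more. Glb1 shares exon bases with Tmppe on its own strand, and Hexa, Idua and Sgsh share some with genes on the other strand.

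The genes of sphingolipid breakdown included the steadiest estimate of all members. Psap was at 1021, 1284, 1314 and 1034 CPM on chow and 1213, 1178, 1230 and 1080 CPM on HFD. The HFD libraries lay inside the chow range, and the log2 fold change of 0.01 (SE 0.14) had a 95% interval from -0.28 to 0.31. Asah1, the gene of acid ceramidase, was at 390, 383, 470 and 379 CPM on chow and 438, 424, 392 and 474 CPM on HFD. All 4 HFD libraries exceeded chow 1, 2 and 4, and chow 3 lay among the HFD values, giving a log2 fold change of 0.09 (SE 0.17, -0.27 to 0.45). Gla, the alpha-galactosidase A gene, was scarce, at 3.82, 4.22, 4.56 and 0.472 CPM on chow and 10.7, 3.99, 8.22 and 7.23 CPM on HFD. Only chow 4, with 2 counts, was near the detection floor. HFD 5, 7 and 8 lay above every chow library, and the wide interval of the log2 fold change (1.20, SE 1.18, -1.26 to 3.66) included 0. Galc, the galactosylceramidase gene, was at 114 ± 70.3 CPM on chow and 114 ± 56.2 CPM on HFD. Its log2 fold change of -0.01 (SE 0.40) changed sign with upper quartile scaling (0.03) and with library totals (0.08). Smpd1, the acid sphingomyelinase gene, was too scarce to test, with 5 counts in chow 3, 11 each in HFD 6 and HFD 7, and 0 in the other libraries.

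Tpp1, which encodes a peptidase that removes tripeptides from the ends of proteins, was 1 of the 3 members with an unadjusted p under 0.05. It was at 251, 211, 178 and 196 CPM on chow and 321, 361, 278 and 220 CPM on HFD. HFD 5, 6 and 7 exceeded every chow library, whereas HFD 8 lay below chow 1. The means were 209 ± 31.1 and 295 ± 60.6 CPM, and the log2 fold change was 0.50 (SE 0.22, 0.04 to 0.96; edgeR unadjusted p = 0.036, adjusted p = 0.89). With the summed stellate and fibroblast markers, which were high in HFD 5, 6 and 7, as a covariate, the log2 fold change was 0.17. Because these markers were low in every chow library, this adjustment does not separate diet from those cells. The gene lies on chromosome 7 at 105744811 to 105752235, minus strand, in GRCm38. Ppt1, the gene of a thioesterase that removes fatty acids from proteins, was at 194, 173, 318 and 192 CPM on chow and 176, 269, 279 and 244 CPM on HFD. Its diets overlapped, giving a log2 fold change of 0.14 (SE 0.25, -0.37 to 0.66).

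The cholesterol carriers Npc1 and Npc2, which act together to move cholesterol out of the lysosome, had estimates of opposite sign. Npc1, the membrane protein's gene, was at 226, 190, 285 and 189 CPM on chow and 323, 243, 266 and 258 CPM on HFD. Each HFD library exceeded chow 1, 2 and 4, giving a log2 fold change of 0.29 (SE 0.22, -0.16 to 0.75). Npc2, the gene of the soluble partner, was at 186, 345, 206 and 193 CPM on chow and 187, 244, 162 and 193 CPM on HFD. Apart from chow 2 the values of Npc2 were similar in both diets, and the log2 fold change was -0.24 (SE 0.25, -0.77 to 0.28). The difference between these 2 estimates was not tested.

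The V-ATPase genes held 2 of the 3 members with an unadjusted p under 0.05, and their summed level was higher in every HFD library than in any chow library. The 8 V-ATPase members together were at 602, 469, 577 and 501 CPM on chow and 967, 715, 695 and 640 CPM on HFD. The means of 537 ± 62.3 and 755 ± 145 CPM gave a ratio of 1.41, which was 1.27 without HFD 5. The choice to add up the V0, V1 and accessory groups was made after their values were seen, so the sum is a description with no test. A sum over 13 other V-ATPase subunit genes did not separate the diets, at 483, 601, 565 and 586 CPM on chow and 463, 602, 665 and 522 CPM on HFD.

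The V1 sector, which hydrolyses ATP, carried most of the difference in that sum. Its 3 members together were at 268, 152, 240 and 189 CPM on chow and 505, 342, 351 and 205 CPM on HFD, with HFD 8 inside the chow range. Atp6v1b2, which encodes the B2 subunit of the ATP-hydrolysing ring, was at 52.6, 32.2, 79.4 and 60.7 CPM on chow and 95.5, 118, 172 and 74.3 CPM on HFD. HFD 5, 6 and 7 were above all chow libraries and HFD 8 was below chow 3. The means were 56.2 ± 19.6 and 115 ± 42.1 CPM, and the log2 fold change was 1.03 (SE 0.38, 0.24 to 1.82; edgeR unadjusted p = 0.013, adjusted p = 0.75). Atp6v1b2 lies on chromosome 8 at 69088646 to 69113711, plus strand, in GRCm38. Atp6v1h, the gene of the H subunit, which regulates the coupling of the sectors, was at 83.1, 53.2, 34.2 and 44.8 CPM on chow and 166, 90.5, 60.1 and 63.7 CPM on HFD. HFD 5 and 6 were above every chow library and HFD 7 and 8 were below chow 1, giving a log2 fold change of 0.82 (SE 0.42, -0.06 to 1.70; edgeR unadjusted p = 0.066, adjusted p = 0.94). Atp6v1h shares exon bases with Rgs20 on the other strand. Atp6v1a, the catalytic A subunit gene, was at 132, 66.7, 126 and 83.5 CPM on chow and 244, 134, 119 and 67.5 CPM on HFD. HFD 5 stood above the other libraries and HFD 8 was near the lowest chow value, giving a log2 fold change of 0.47 (SE 0.36, -0.29 to 1.22).

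Atp6ap1, the gene of an accessory subunit that takes part in assembling the pump, was at 104, 131, 121 and 137 CPM on chow and 134, 200, 181 and 232 CPM on HFD. HFD 5 lay just below chow 4 and the other HFD libraries lay above all of chow. The means were 123 ± 14.4 and 187 ± 41.1 CPM, and the log2 fold change was 0.60 (SE 0.26, 0.05 to 1.15; edgeR unadjusted p = 0.033, adjusted p = 0.89). The gene lies on chromosome X at 74297097 to 74304721, plus strand, in GRCm38. With library totals in place of TMM scaling, Atp6ap1 and Lamp2 had every HFD library above every chow library, as did 2.07% of all genes, against 1.36% with the opposite order.

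The membrane sector V0 showed no common direction, with 2 estimates above 0 and 2 below. Atp6v0a1, the gene of a proton-path subunit, was at 78.6, 67.3, 63.0 and 56.6 CPM on chow and 56.6, 54.7, 82.6 and 116 CPM on HFD. Its lowest and its highest values were both in HFD, giving a log2 fold change of 0.22 (SE 0.38, -0.56 to 1.01). Atp6v0d1, the gene of a subunit that links the sectors, was at 53.5, 22.5, 46.6 and 24.3 CPM on chow and 154, 34.6, 26.8 and 14.5 CPM on HFD. HFD 5 alone lay above chow, and without it the log2 fold change of 0.65 (SE 0.62, -0.66 to 1.95) turned to -0.53. Atp6v0b, a proteolipid subunit gene, was at 30.8, 61.2, 84.8 and 78.4 CPM on chow and 65.0, 55.4, 28.5 and 53.6 CPM on HFD, giving a log2 fold change of -0.33 (SE 0.44, -1.26 to 0.59). Its diets overlapped, and Atp6v0b shares exon bases with Gm12841 on the other strand. Atp6v0c, the main proteolipid gene, was at 34.9 ± 23.1 and 31.4 ± 14.6 CPM. It has 2 processed pseudogenes, Atp6v0c-ps1 and Atp6v0c-ps2, with which reads could be shared.

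**Figure D3:**
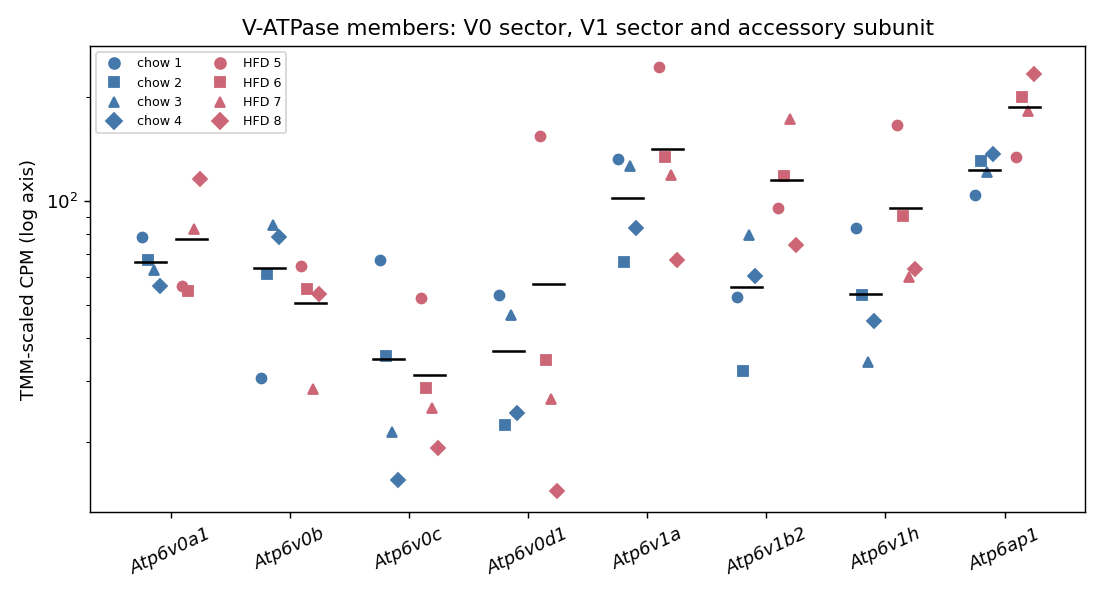
TMM-scaled CPM of the 8 V-ATPase members in each library on a log axis, with chow in blue at the left of each gene and HFD in red at the right; marker shape gives the library and black bars are means over 4 libraries. The 3 V1 genes and Atp6ap1 have higher HFD means with overlapping libraries, and HFD 5 (circle) stands highest in Atp6v0d1, Atp6v1a and Atp6v1h.

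HFD 5, which had the highest V-ATPase sum, also had the highest stellate and fibroblast marker sum (493 CPM). With that marker sum as a covariate, the log2 fold changes were 0.32 for Atp6v1b2, 0.21 for Atp6v1h, -0.70 for Atp6v1a, -1.46 for Atp6v0d1 and 0.92 for Atp6ap1, none past the threshold (edgeR adjusted p = 1.00 each). The same covariate turned the sign for Lamp1 (-0.54) and Npc2 (0.14). That marker sum was high in HFD 5, 6 and 7 (493, 290 and 262 CPM) and low in every chow library (1.87 to 24.3 CPM). The covariate thus ran largely with diet, and the adjusted diet term leans strongly on HFD 8. These adjusted values do not separate diet from stellate and fibroblast transcripts. HFD 8 had a marker sum of 16.3 CPM, inside the chow range, and its V-ATPase sum of 640 CPM was above the highest chow value of 602 CPM. Its V1 sum (205 CPM) and V0 sum (203 CPM) lay inside the chow ranges of 152 to 268 and 175 to 230 CPM. Its Atp6ap1 value of 232 CPM lay above the highest chow value of 137 CPM. The part of stellate and fibroblast cells in the V-ATPase sum was not tested. HFD 5 was the highest library for 8 of the 32 tested members (13.3% of all genes) and the lowest for 0 (13.4% of all genes). Chow 3 was the highest for 9 members (15.8% of all genes).

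Mcoln1 and Cln3 had estimates below 0 with wide intervals. Mcoln1, the gene of a lysosomal calcium channel, was at 142, 135, 67.8 and 138 CPM on chow and 91.4, 117, 146 and 56.2 CPM on HFD. The highest value was in HFD 7, and the log2 fold change was -0.24 (SE 0.34, -0.96 to 0.48). Cln3, a lysosomal membrane protein gene, was at 16.6, 17.6, 41.5 and 22.2 CPM on chow and 13.7, 30.6, 27.6 and 13.7 CPM on HFD, giving a log2 fold change of -0.19 (SE 0.65, -1.56 to 1.17). Cln3 shares exon bases with Apobr on the other strand.

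The MiT/TFE factors showed no diet difference that stood out from the spread between libraries. Tfeb was at 3.37, 3.43, 23.8 and 21.9 CPM on chow and 7.55, 13.02, 11.0 and 18.9 CPM on HFD. All HFD values lay within the span of the chow values, and the log2 fold change was -0.06 (SE 0.92, -1.98 to 1.86). Tfe3 was at 114, 44.6, 48.7 and 15.1 CPM on chow and 141, 51.2, 19.0 and 75.7 CPM on HFD, giving a log2 fold change of 0.37 (SE 0.58, -0.84 to 1.58). Tfe3 varied more than 7-fold within each diet. Mitf was at 31.2, 71.3, 101 and 85.9 CPM on chow and was even in HFD, at 67.3, 70.3, 67.7 and 77.1 CPM, giving a log2 fold change of -0.04 (SE 0.39, -0.86 to 0.79). With library totals the sign turned for Tfeb (0.01) and for Mitf (0.04). The 10 members with CACGTG in a promoter had a median log2 fold change of -0.05, with 5 above 0 and 5 below. The 18 tested members with a promoter and no CACGTG had a median of 0.00, with 9 above 0 and 9 below.

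**Figure D4:**
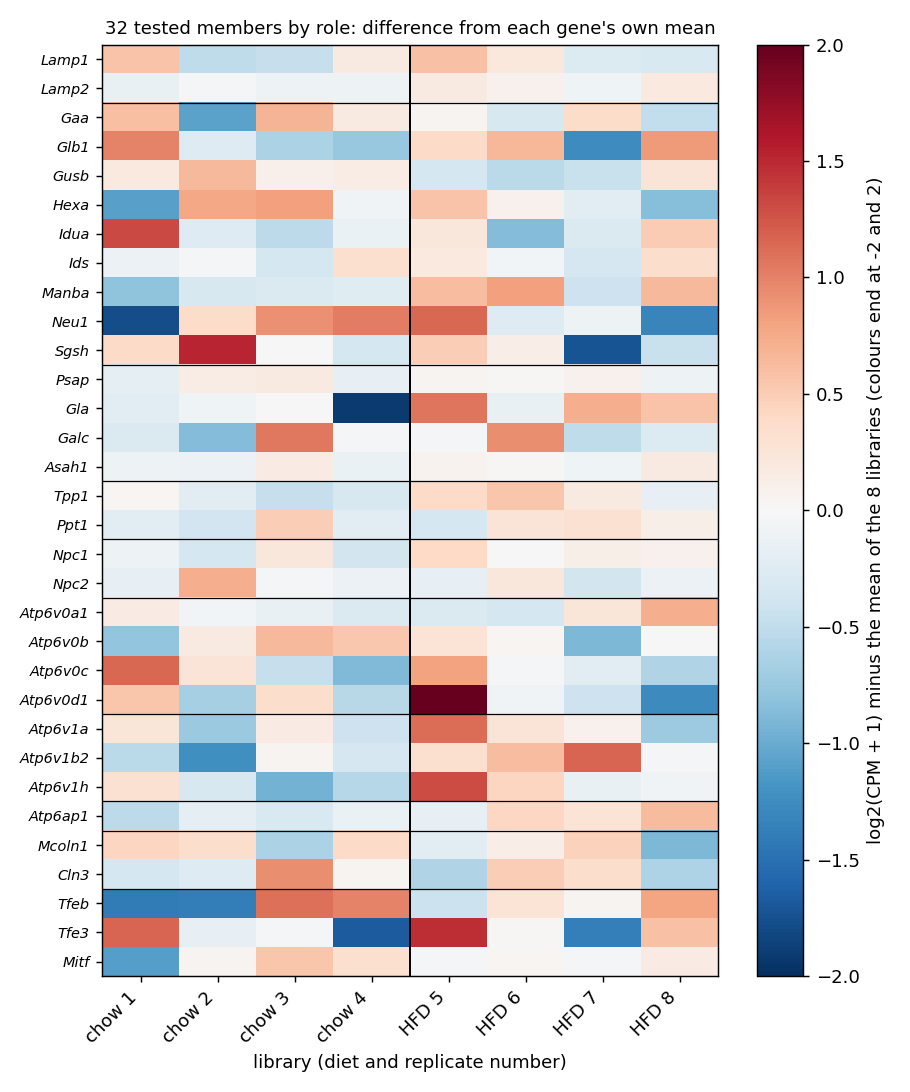
Each of the 32 tested members in each library, in order of role, as log2(CPM + 1) minus the gene's mean over the 8 libraries; red is above that mean, blue below, and the vertical line separates chow from HFD. The V1 genes are red in HFD 5 and 6, and no member is uniformly of one colour in each diet without overlap of its values.

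Other genes of the same pathways, listed by function, were read from the same test over all genes. Of 71 listed genes 67 were tested, 0 passed the threshold, and the median log2 fold change was 0.05. At an unadjusted p under 0.05, 4 were higher and 0 lower, against 2.61% and 2.74% of all genes. Every HFD library lay above every chow library for 5 of them, Lipa, Acp2, Atp6v1e1, Scarb2 and Mfsd8, where 1.68% of all genes did so, and 0 had the opposite order. These lists were chosen with earlier results of these data known, so their counts beside the shares of all genes are a description and not a test.

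Among 20 other hydrolase genes, 19 were tested, with 8 estimates above 0 and 11 below. Lipa, the gene of lysosomal acid lipase, which releases cholesterol and fatty acids from lipoprotein lipids, was at 507, 576, 642 and 578 CPM on chow and 904, 846, 687 and 760 CPM on HFD. The lowest HFD library exceeded the highest chow library, and the log2 fold change was 0.47 (SE 0.16; edgeR adjusted p = 0.75). Acp2, a lysosomal acid phosphatase gene that shares exon bases with Ddb2 on the other strand, was at 84.2, 109, 70.9 and 115 CPM on chow and 205, 198, 141 and 152 CPM on HFD. Its diets were also separate, giving a log2 fold change of 0.87 (SE 0.28; edgeR adjusted p = 0.75).

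Among the 13 other V-ATPase subunit genes, 11 were tested, with 7 estimates above 0 and 4 below. Atp6v1e1, the gene of a peripheral stalk subunit, was at 11.5, 10.1, 8.29 and 19.4 CPM on chow and 30.4, 36.6, 25.3 and 27.5 CPM on HFD. Its diets were separate at this low level, giving a log2 fold change of 1.28 (SE 0.66; edgeR adjusted p = 0.94). Atp6v1g2, another stalk subunit gene, went the other way, at 22.6 ± 14.1 and 5.92 ± 4.84 CPM (log2 fold change -1.93, SE 0.95; edgeR adjusted p = 0.94). Atp6ap2, the second accessory subunit gene, was at 182 ± 76.9 and 188 ± 43.8 CPM.

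Among 16 other lysosomal membrane protein genes, all of which were tested, 9 estimates lay above 0 and 7 below. Mfsd8, a lysosomal transporter gene, was at 22.5, 50.1, 11.8 and 41.3 CPM on chow and 109, 76.9, 59.4 and 64.1 CPM on HFD. The diets were separate, giving a log2 fold change of 1.30 (SE 0.48; edgeR adjusted p = 0.75). Scarb2, whose protein carries glucocerebrosidase to the lysosome, was at 727, 729, 580 and 721 CPM on chow and 841, 822, 756 and 809 CPM on HFD, giving a log2 fold change of 0.23 (SE 0.15).

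The 7 genes of hydrolase sorting included Igf2r, the large mannose 6-phosphate receptor, which was at 0, 2.19, 0 and 1.42 CPM on chow and 17.7, 19.6, 16.9 and 0.402 CPM on HFD. HFD 5, 6 and 7, where Igf2r was high, also had the highest stellate and fibroblast marker sums. The part of those cells in the Igf2r values was not tested. HFD 8 was as low as chow, and because chow counts were at or close to the floor the fitted log2 fold change of 3.87 (SE 1.50; edgeR adjusted p = 0.78) depends on how near-zero counts are handled. Gnptg, a subunit of the enzyme that makes the mannose 6-phosphate tag, was at 25.9 ± 23.5 and 10.1 ± 3.51 CPM. M6pr, the small receptor gene, was at 175 ± 49.5 and 195 ± 29.7 CPM.

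Of 15 genes that act upstream of the MiT/TFE factors or belong to their family, 14 were tested, with 9 estimates above 0 and 5 below. Tfec, the fourth family member, was at 20.4, 5.00, 0.622 and 6.84 CPM on chow and 64.0, 21.9, 23.6 and 9.04 CPM on HFD. HFD 5, 6 and 7, which had the highest stellate and fibroblast marker sums, were above all chow libraries. The log2 fold change was 1.85 (SE 0.92, edgeR adjusted p = 0.94). Fnip1, a folliculin partner gene, was at 84.99 ± 38.6 and 141 ± 37.6 CPM, giving a log2 fold change of 0.73 (SE 0.37; edgeR adjusted p = 0.94).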

How the data were processed

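RNA was extracted on columns and 500 pg per library was amplified with the Ovation RNA-Seq System V2, per the labels' protocols. The submitters' processing notes name FastQC, Trim Galore, STAR and the GRCm38 build. Program versions, the counting program, its annotation and its strand setting are not stated in these sources. The authors deposited expected counts per gene, not scaled between libraries, and 7.66% to 8.32% of the values above 0 were not whole. All were rounded before testing. Total counts and the precision they give are stated with the results.

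From these, all genes were fitted with edgeR (4.0.16): filterByExpr with the diet groups, TMM scaling, a robust quasi-likelihood fit with diet as the only term, two-sided, Benjamini-Hochberg adjustment over the 10129 genes kept at a threshold of 0.05. The SE is the log2 fold change divided by the root of the F statistic. Gene models came from GENCODE M21, where 48058 of 48440 identifiers were found. Replicate numbers run 1 to 4 in chow and 5 to 8 in HFD and pair no libraries. The fit was also run on simulated counts in which 200 genes were changed. The outcome of that run is not given here, and no result above rests on it.

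The members, lists and tests were chosen with earlier results of these data known. In each role the up to 3 members with the smallest p, the most abundant member and all transcription factors are given per library, the others by mean and SD; of each other list, the up to 2 genes with the smallest p and the most abundant are named, together with every gene whose diets were separate. Alternatives were RLE, upper quartile or library-total scaling, no filter or at least 5 CPM in 4 libraries, each library left out in turn, DESeq2 (1.42.0), limma-voom (limma 3.58.1) with quality weights, a fit that was not robust, and acinar, endocrine or stellate marker covariates; those for the V-ATPase sum were added after seeing the data. Each marker covariate was entered as log2(summed CPM + 1) minus its mean over the libraries. R was version 4.3.3. Of the genes this rule names, 1 is not reported here. A second, nearly empty Itgam gene model was left out.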

Additional observations from a re-analysis of the deposited data

Results flagged for a closer look

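A single library stood apart from the other 3 of its diet in 8 of 64 groups of member values, where the gap to the nearest library exceeded Dixon's critical share of the group's range; chance gives about 1 in 20. In chow 1, Idua was high at 59.3 CPM (others 15.8 to 21.0) and Manba low at 15.7 CPM (others 22.3 to 23.6). In chow 2, Gusb was high at 280 CPM (others 192 to 204) and Npc2 at 345 CPM (others 186 to 206). In chow 3, Asah1 was high at 470 CPM (others 379 to 390) and Ppt1 at 318 CPM (others 173 to 194), while Mcoln1 was low at 67.8 CPM (others 135 to 142) and with it the sum of Mcoln1 and Cln3, at 109 CPM (others 153 to 160). In HFD 5, Atp6v0d1 was high at 154 CPM (others 14.5 to 34.6). HFD 5 also held the highest summed stellate and fibroblast markers, 493 CPM; their part in the Atp6v0d1 value was not tested within HFD.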

How the results depend on the processing

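Members called stayed at 0 under all 19 alternatives, where the lowest adjusted p of a member was 0.289 (Atp6v1b2). Over all genes the count called was 0 except 45 without a filter, 28 with DESeq2, 1 with limma-voom and 11 without HFD 8, so that leaving out libraries gave 0 to 11. Members with separate diets numbered 0, but 2 with library totals (Atp6ap1 and Lamp2) and 1 to 3 with a library left out, settings under which 3.44% and 5.92% to 7.0% of all genes had separate diets, against 3.39% with TMM scaling and all 8 libraries. The members' median log2 fold change ranged from 0.02 to 0.18 with a library left out. The ratio of the V-ATPase sums ranged from 1.27 (without HFD 5) to 1.49 (library totals).

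The sign was the same under every alternative run for 16 members and turned at least once for 16. The cause was not tested. The stellate marker sum ran largely with diet, so values with that covariate do not separate diet from those cells. The log2 fold change turned with the stellate covariate for Lamp1 (-0.54), Gusb (0.016), Npc2 (0.14), Atp6v0d1 (-1.46), Atp6v1a (-0.70), Tfeb (0.033) and Mitf (0.11); with the endocrine covariate for Gaa (0.0092), Idua (0.12), Psap (-0.013) and Atp6v0c (0.14); with the acinar covariate for Galc (0.053), Atp6v0c (0.18) and Tfeb (0.40); with limma-voom for Galc (0.18), Atp6v0c (0.071) and Tfeb (0.35); with library totals for Galc (0.075), Tfeb (0.011) and Mitf (0.039); and for Galc with upper quartile scaling (0.032) and no filter (0.0052). With a library left out the log2 fold change crossed 0 for Lamp1 (-0.11 to 0.33), Idua (-0.58 to 0.29), Ids (-0.028 to 0.21), Psap (-0.047 to 0.077), Galc (-0.41 to 0.51), Npc2 (-0.37 to 0.012), Atp6v0a1 (-0.040 to 0.35), Atp6v0c (-0.51 to 0.37), Atp6v0d1 (-0.53 to 0.96), Cln3 (-0.42 to 0.19), Tfeb (-0.38 to 0.41), Tfe3 (-0.18 to 0.98) and Mitf (-0.29 to 0.17). Gla could not be tested with the filter of 5 CPM.

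No paired analysis was possible because the diets share no replicate number. With 4 libraries per diet, 95% intervals of most members under 100 CPM extend beyond a 2-fold change.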
